A study of Homo sapiens with 2 samples.

Results

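A group of 1591 CUT & Tag peaks, each lying at an end of a single protein-coding gene, was described in TFK-1 cells that expressed Flag-tagged HOXA5. They were taken from the 8043 peaks called in the LV-HOXA5 library. The peak had to share no base with any of the 635 peaks of the LV-HOXA5-NC library, and its interval had to lie within 1000 bp of the start or end of exactly 1 protein-coding gene in the RefSeq gene table of GRCh38.p14. These are called single-gene peaks below. They made up 19.8% of the LV-HOXA5 list. Another 507 peaks without a control peak lay near the ends of 2 or more protein-coding genes, 655 lay near the end of a non-coding gene only, 4846 lay near no gene end, and 444 overlapped a control peak.

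TFK-1 is an established human extrahepatic cholangiocarcinoma line. Both groups were stable lines made by lentiviral transduction and puromycin selection, LV-HOXA5 with a vector for Flag-HOXA5 and LV-HOXA5-NC with its negative control vector, and 1000000 cells were used per library. Chromatin bound by the tagged protein was tagmented after anti-Flag labelling, so a peak marks fragments recovered with the Flag antibody and not with an antibody to endogenous HOXA5. Each condition had 1 library, so no difference between the conditions was tested, and the peaks of a library are not replicates of one another. Intervals given below are exact and cover counting error only.

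HOXA5 is a homeodomain transcription factor of the HOXA cluster that patterns the body axis in the embryo and is silenced in several carcinomas. Homeodomains read short AT-rich cores, and HOX proteins often bind with PBX or MEIS partners. Promoters of widely expressed genes are mostly rich in CpG and carry recurrent short elements close to the start, among them the GC box read by SP1 and the CCAAT box read by NF-Y. In CUT & Tag, a transposase tethered through the antibody cuts DNA around the bound protein, and open chromatin at promoters is also accessible to untethered enzyme.

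The promoters with the highest fold enrichment are shown first, because the letters they hold recur in the results that follow. Fold enrichment is the summit pileup divided by the local background, each with 1 fragment added, and pileup is the number of overlapping fragments at the summit. The 250 bases before a listed transcript start were taken from RefSeq, GRCh38.p14, and are given 5′ to 3′ on the strand of the gene. They come from the 7 highest-ranked single-gene peaks that overlapped a listed promoter of their gene, and from MXD1, AIFM1 and CCNG1, which were added after their values were seen. Capitals mark CCAAT, TAAT and CCGGAA on either strand. EIF2AK3 lies at chr2:88627465-88627714 on the minus strand, SLC2A8 at chr9:127396919-127397168 on the plus strand and CNOT3 at chr19:54137512-54137761 on the plus strand. HBP1 lies at chr7:107168753-107169002 on the plus strand, ELL at chr19:18522071-18522320 on the minus strand and ANAPC15 at chr11:72112299-72112548 on the minus strand. DCTN4 lies at chr5:150759018-150759267 on the minus strand, MXD1 at chr2:69914859-69915108 on the plus strand, AIFM1 at chrX:130165842-130166091 on the minus strand and CCNG1 at chr5:163437321-163437570 on the plus strand.
EIF2AK3: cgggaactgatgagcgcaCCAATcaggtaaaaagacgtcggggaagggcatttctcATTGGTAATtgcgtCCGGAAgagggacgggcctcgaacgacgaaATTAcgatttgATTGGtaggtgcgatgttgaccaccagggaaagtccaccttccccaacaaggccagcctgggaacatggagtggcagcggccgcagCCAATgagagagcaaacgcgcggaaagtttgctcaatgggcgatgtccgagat
SLC2A8: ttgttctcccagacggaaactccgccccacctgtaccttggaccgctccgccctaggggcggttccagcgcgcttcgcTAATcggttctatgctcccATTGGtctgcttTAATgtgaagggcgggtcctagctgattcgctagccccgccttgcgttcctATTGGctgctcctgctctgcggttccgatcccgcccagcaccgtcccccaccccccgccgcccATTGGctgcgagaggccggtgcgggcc
CNOT3: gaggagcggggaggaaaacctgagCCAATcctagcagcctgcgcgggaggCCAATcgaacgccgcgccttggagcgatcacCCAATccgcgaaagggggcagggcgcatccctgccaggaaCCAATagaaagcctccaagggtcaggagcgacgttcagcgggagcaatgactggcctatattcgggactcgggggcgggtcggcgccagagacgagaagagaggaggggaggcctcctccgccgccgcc
HBP1: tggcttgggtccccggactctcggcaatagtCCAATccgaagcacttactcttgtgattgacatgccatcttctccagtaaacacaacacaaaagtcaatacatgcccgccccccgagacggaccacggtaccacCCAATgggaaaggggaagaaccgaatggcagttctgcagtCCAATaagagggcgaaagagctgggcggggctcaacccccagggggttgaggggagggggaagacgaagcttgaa
ELL: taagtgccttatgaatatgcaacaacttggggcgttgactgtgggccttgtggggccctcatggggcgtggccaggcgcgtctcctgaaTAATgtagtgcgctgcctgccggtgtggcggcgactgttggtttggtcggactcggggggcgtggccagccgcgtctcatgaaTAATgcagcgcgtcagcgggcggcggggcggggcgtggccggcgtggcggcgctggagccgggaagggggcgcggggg
ANAPC15: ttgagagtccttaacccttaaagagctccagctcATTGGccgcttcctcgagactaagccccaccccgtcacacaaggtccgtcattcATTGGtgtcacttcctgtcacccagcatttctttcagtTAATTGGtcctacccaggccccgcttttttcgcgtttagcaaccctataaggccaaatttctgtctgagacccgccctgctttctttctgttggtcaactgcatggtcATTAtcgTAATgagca
DCTN4: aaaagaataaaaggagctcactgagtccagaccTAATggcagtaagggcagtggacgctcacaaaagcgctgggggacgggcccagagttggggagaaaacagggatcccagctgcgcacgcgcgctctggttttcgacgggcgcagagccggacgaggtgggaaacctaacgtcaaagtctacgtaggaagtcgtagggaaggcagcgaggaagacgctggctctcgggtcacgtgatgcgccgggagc
MXD1: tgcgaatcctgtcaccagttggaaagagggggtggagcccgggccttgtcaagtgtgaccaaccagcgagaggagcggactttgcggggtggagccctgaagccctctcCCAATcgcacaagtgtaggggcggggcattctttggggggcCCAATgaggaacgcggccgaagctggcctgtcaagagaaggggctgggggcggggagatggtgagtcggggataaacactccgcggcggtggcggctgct
AIFM1: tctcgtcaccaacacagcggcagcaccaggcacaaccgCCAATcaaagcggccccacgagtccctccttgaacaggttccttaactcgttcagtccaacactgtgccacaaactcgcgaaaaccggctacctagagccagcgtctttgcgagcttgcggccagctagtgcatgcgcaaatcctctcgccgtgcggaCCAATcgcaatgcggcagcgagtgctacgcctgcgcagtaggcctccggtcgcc
CCNG1: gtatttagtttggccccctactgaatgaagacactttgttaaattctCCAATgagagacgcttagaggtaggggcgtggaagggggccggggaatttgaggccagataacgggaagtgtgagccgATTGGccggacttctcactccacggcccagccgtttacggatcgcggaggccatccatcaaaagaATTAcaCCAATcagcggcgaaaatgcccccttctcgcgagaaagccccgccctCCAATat

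Of these 10 stretches, 8 held CCAAT on one strand or the other, with 25 matches in all, 6 held TAAT with 11 matches, and 1 held CCGGAA. EIF2AK3, CNOT3 and CCNG1 held 4 CCAAT matches each, whereas ELL and DCTN4 held none. MXD1, AIFM1 and CCNG1, which were added after their values were seen, all held CCAAT, with 2, 2 and 4 matches. The count of 8 includes them, so it is not a share of promoters chosen by rank alone. Over all protein-coding promoters, CCAAT was in 36.4% of the windows described below, which are longer than these stretches. The peak covered all 250 printed bases of SLC2A8, ANAPC15, AIFM1 and CCNG1. It covered 215 bases of EIF2AK3, 228 of HBP1, 149 of CNOT3, 130 of MXD1, 112 of ELL and 104 of DCTN4. The summit lay 3 bp before the CCNG1 start, 154 bp before that of AIFM1 and 478 bp before that of MXD1, so the highest point of the MXD1 peak was upstream of the bases shown.

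The single-gene peaks were low and narrow. Their pileup ran from 8 to 120 fragments with a median of 16 and quartiles of 13 and 21. Fold enrichment ran from 2.51 to 12.9, with a median of 4.85 (95% interval 4.79 to 4.92) and quartiles of 4.17 and 5.65. Their median length was 398 bp, and the longest, at SIRT4, was 1464 bp. All LV-HOXA5 peaks together had a median fold enrichment of 4.82 and a median pileup of 17. Peaks at 2 or more protein-coding gene ends had medians of 4.95 and 18, peaks at non-coding gene ends only had 4.57 and 18, and peaks at no gene end had 4.75 and 16. In median height the single-gene peaks therefore lay close to the rest of the list. The highest pileup of the list, 8023, was at a peak with a control peak, which the rule leaves out. Among peaks without one, the highest pileup was 4872 at 2 or more protein-coding gene ends, 1513 at non-coding gene ends only and 388 at no gene end.

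The LV-HOXA5 library held 15778555 fragments after the filters of the peak caller and the LV-HOXA5-NC library held 1948734, or 12.4% as many. That difference bears on the requirement of no control peak, which 94.5% of the LV-HOXA5 list met. Scaled to the control depth, the median single-gene peak would hold 1.98 fragments, and 1462 of the 1591 peaks, 91.9%, would fall below 4, the lowest pileup of any control peak. The control list also had no peak shorter than 283 bp, and 205 single-gene peaks were shorter. For most of these peaks, the lack of a control peak was not informative at this depth.

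Another 10 LV-HOXA5 peaks met the distance rule but overlapped a control peak, and they were left out. Their median pileup was 39.5 and their median fold enrichment 6.75, above the medians of the single-gene peaks. They lay at FARP2, LAPTM4A, ARID4B, CIC, ZCCHC7, FAM72C and 4 LOC genes, and the highest of them, at LOC124905351, had a pileup of 188. The control list itself held 14 peaks at the end of a single protein-coding gene.

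**Figure D1:**
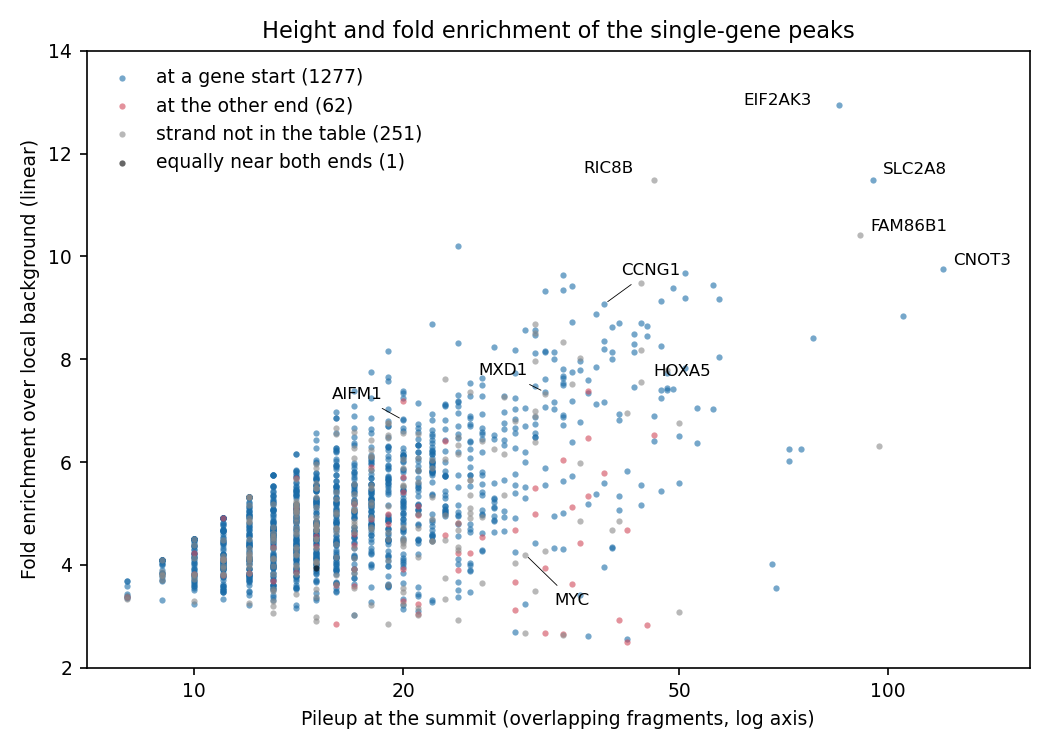
Each point is 1 of the 1591 single-gene peaks, with its pileup in fragments on a log axis and its fold enrichment on a linear axis, coloured by the gene end it lay at. Most points sit between 13 and 21 fragments, and EIF2AK3, RIC8B, SLC2A8, FAM86B1 and CNOT3 stand above and to the right of them.

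The peak of highest fold enrichment lay at EIF2AK3, which encodes PERK, the endoplasmic reticulum kinase that phosphorylates eIF2α under unfolded-protein stress. It spanned chr2:88627500-88628230, covered the gene start and had a pileup of 85 (95% Poisson interval 67.9 to 105) and a fold enrichment of 12.9. RIC8B, a chaperone and exchange factor for G protein α subunits, followed with a pileup of 46 and 11.5-fold. SLC2A8, the intracellular glucose transporter GLUT8, had a pileup of 95 (76.9 to 116) and 11.5-fold, so its order against RIC8B on this scale is not resolved. FAM86B1 had a pileup of 91 and 10.4-fold. LOC124903130 came next at 10.2-fold with only 24 fragments (15.4 to 35.7), over a local background of 1.45 fragments.

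CNOT3, a subunit of the CCR4-NOT deadenylase complex that shortens mRNA tails, had the tallest of all single-gene peaks, with 120 fragments (99.5 to 143) and the smallest q-value of the group (−log10 q of 73.0). Its fold enrichment of 9.76 was lower than that of EIF2AK3, at a local background of 11.4 fragments against 5.65. HBP1, an HMG-box repressor of cell-cycle genes, had a pileup of 51 and 9.69-fold. ELL, an elongation factor for RNA polymerase II, had 34 fragments and 9.63-fold. ANAPC15, a subunit of the anaphase-promoting complex, had 56 and 9.45-fold. The counting intervals of the HBP1, ELL and ANAPC15 pileups overlap.

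The most regular property of the group was the side of the gene. The strand was known for 1340 of the 1591 peaks, and 1277 of these, 95.3% (94.0 to 96.4), lay at the gene start. Only 62 lay at the other end, and 1 was equally near both. When the LV-HOXA5 peaks without a control peak were moved by 50 kb towards higher coordinates, 315 met the distance rule in place of 1591, and 48.6% of those with a strand (42.2 to 55.0) lay at a start. Moved 50 kb the other way, 280 met it and 51.1% (44.4 to 57.8) lay at a start. The rule treats both ends alike, so the excess of starts was not fixed by the choice of peaks.

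Around the start, the summits were shifted upstream. The median summit lay 94 bp before the start (−94 bp, 95% interval −110 to −77), with quartiles at −234 and 105 bp. Of the 1277 peaks at a start, 803, or 62.9% (60.2 to 65.5), had the summit upstream and 472 had it downstream. The peak covered the start itself in 678 cases (53.1%), 802 summits (62.8%) were within 250 bp and 1122 (87.9%) within 500 bp. Starts are those of the gene table, and a gene can have further starts inside it: for EIF2AK3 the summit was 321 bp inside the longest gene model but 360 bp before the transcript start printed above.

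**Figure D2:**
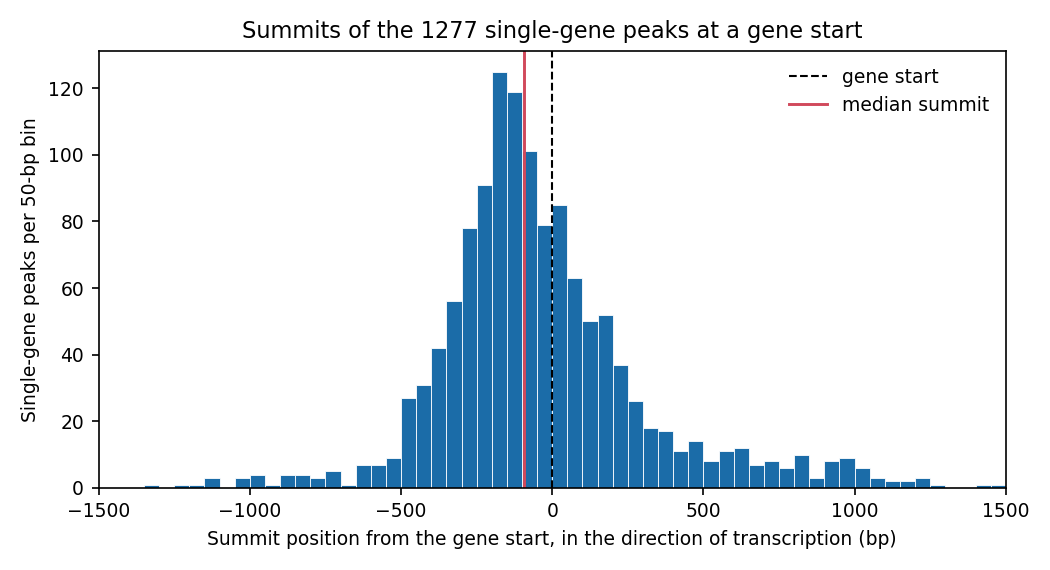
Bars give the number of single-gene peaks at a gene start per 50-bp bin of summit position, with the direction of transcription to the right. The tallest bars lie upstream of the dashed line of the gene start, and the median, at −94 bp, is marked.

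Fold enrichment changed little with position. Peaks with the summit over 250 and up to 500 bp upstream had a median of 5.03 (4.86 to 5.21, n = 234) and those 1 to 250 bp upstream had 4.98 (4.85 to 5.11, n = 515). For summits 0 to 250 bp downstream the median was 4.85 (4.69 to 4.93, n = 287), and between 250 and 500 bp downstream it was 4.54 (4.18 to 4.80, n = 86). Farther out, over 500 bp upstream and over 500 bp downstream, the medians were 4.78 (4.52 to 5.02, n = 54) and 4.56 (4.33 to 4.93, n = 101). The interval of the group between 250 and 500 bp downstream does not reach those of both groups within 500 bp upstream, while that of the farthest downstream group overlaps them. Peaks of 1 library allow no test of these steps.

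The 62 peaks at the far end of a gene differed in make-up. Their median pileup was 21, against 16 at starts, while their median fold enrichment was 4.41 (3.92 to 4.82), against 4.90 (4.82 to 4.96), and the local background under them was 4.17 fragments against 2.51. For 14 of them another listed transcript start, of any gene, lay within 1000 bp, and for 48 none did. The summit lay beyond the gene in 35 and inside it in 27. Examples named after their values were seen are CCL20, a chemokine that attracts CCR6-bearing lymphocytes, whose peak began 431 bp past the gene end with 37 fragments and 7.38-fold, and TJP1, which encodes the tight-junction scaffold ZO-1, with 18 fragments and 5.91-fold.

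At the limit of the rule, the farthest peaks kept were at SIRT4 (998 bp, 3.11-fold), LURAP1L (997 bp, 5.10-fold) and CTBP2 (989 bp, 4.95-fold). The nearest left out were at CCN5 (1011 bp, 3.99-fold), NPIPB4 (1013 bp, 4.29-fold) and SYS1 (1016 bp, 4.97-fold). The values just inside and just outside overlapped. At the other extreme, 794 of the 1591 peaks covered a gene end outright.

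Genes named for the biology of HOXA5 in these cells were examined next. At HOXA5 itself, chr7:27143075-27143674, the peak held 44 fragments (32.0 to 59.1) at 7.55-fold and lay inside the gene, 7 bp from its higher-coordinate end. HOXA5 is read from that end, and fragments of the lentiviral copy cannot be told apart here from those of the genomic locus. No other of the 39 HOX cluster genes had a single-gene peak, and 3 more lay at peaks with 2 or more gene ends. The HOX share, 2.56% (0.0649 to 13.5), has an interval that holds the 7.87% of all protein-coding genes.

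MXD1, a MAX partner that opposes MYC, had a peak at chr2:69914528-69914988, 121 bp before its start, with 32 fragments (21.9 to 45.2) and 7.36-fold. That value ranked 89th among the 1591 peaks. MYC had a peak of 30 fragments and 4.20-fold at chr8:127742836-127743376, and this one covered the higher-coordinate end of the gene, which is the 3′ end, not the promoter. MNT, another MAX partner, had 34 fragments at 4.31-fold with the summit 625 bp before its start. These were 3 of the 13 genes of the MYC, MAX and MXD network (23.1%, 5.04 to 53.8). That interval holds the 7.87% of all protein-coding genes with a single-gene peak. MXD1 lay above the group median of 4.85, and MYC and MNT lay below it, near the lower quartile of 4.17.

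AIFM1, the mitochondrial flavoprotein of caspase-independent death, had a peak over its start with 20 fragments and 6.82-fold. NASP, a histone H1 chaperone, had 15 fragments and 4.61-fold with the summit 469 bp upstream, and CCNG2, a cyclin linked to growth arrest, had 13 and 5.36-fold with the summit 423 bp upstream. E2F8, an atypical E2F repressor, had 13 fragments and 4.56-fold inside the gene, 473 bp from the higher-coordinate end. VIM, the mesenchymal intermediate filament, had 18 and 4.02-fold at 375 bp downstream of the start. The counting intervals of NASP, CCNG2, E2F8 and VIM overlap one another and the median of the group. CDK2 and PCNA had no single-gene peak, since the peaks near them lay at 2 or more gene ends.

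Next, the 1579 genes with a single-gene peak, 7.87% of 20056 protein-coding genes, were read against 29 gene lists. With peaks at 2 or more gene ends included, 12.9% of the genes were reached. A further limit is that paired promoters, where 2 genes start close together, move a gene from the first count to the second. Lists are described by counts and medians beside these shares. Of the 1579 genes, 1567 had 1 peak and 12 had 2.

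Of 42 genes of ubiquitin conjugation, 11 (26.2%, 13.9 to 42.0) had a single-gene peak, among them RBX1, the RING subunit of cullin ligases, at 6.65-fold, the F-box protein BTRC at 5.55-fold and UBE2N at 5.22-fold. Of 32 proteasome subunits, 8 (25%, 11.5 to 43.4) did, led by PSMD3 at 7.78-fold, PSMC3 at 7.03-fold, PSMA3 at 5.45-fold and PSMD8 at 5.40-fold. All 8 lay at the gene start, as did 95.3% of all single-gene peaks with a known strand. Their median fold was 5.35, against 4.85 for all single-gene peaks.

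Of 55 splicing genes, 13 (23.6%, 13.2 to 37.0) had a single-gene peak and 10 more lay at peaks with 2 or more gene ends, which together made 41.8%, the highest share of any list. The hnRNP genes HNRNPC (43 fragments, 8.49-fold), HNRNPA0 (32 fragments, 7.61-fold) and HNRNPD (18 fragments, 5.78-fold) and the paraspeckle protein SFPQ (21 fragments, 5.84-fold) headed it. Of 62 translation factors and aminoacyl-tRNA synthetases, 12 (19.4%, 10.4 to 31.4) did. EIF5A, which carries hypusine, had 48 fragments at 7.40-fold, EIF4E, the cap-binding protein, had 29 at 6.28-fold, and EIF3F and EIF3D had 5.71-fold and 5.47-fold.

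Among cytosolic ribosomal protein genes the count was 14 of 86 (16.3%, 9.20 to 25.8), with a median fold of 4.48, under that of the whole group. RPL39, RPS23 and RPL26 had their peaks before the start, at 5.56-fold, 5.18-fold and 5.16-fold, while the RPL27A peak, at 5.41-fold, lay at the other end. For mitochondrial ribosomal proteins it was 9 of 77 (11.7%, 5.49 to 21.0). MRPL4 was highest at 6.33-fold, then MRPS14 at 5.61-fold, MRPL15 at 5.41-fold and MRPL11 at 4.75-fold. For complex I the count was 2 of 36 (5.56%, 0.680 to 18.7), NDUFV2 at 5.78-fold and NDUFA6 at 4.60-fold. Yet 6 further complex I genes lay at peaks with 2 or more gene ends. The nuclear pore gave 5 of 29 (17.2%, 5.85 to 35.8). The Y-complex protein SEH1L had 6.67-fold, AHCTF1 5.20-fold, NDC1 4.93-fold and NUP107 4.81-fold. Apart from that of the cytosolic ribosomal list, these intervals hold the 7.87% of all protein-coding genes.

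Cell-division genes were present at moderate folds. Of 51 genes of mitosis and the anaphase-promoting complex, 10 (19.6%, 9.82 to 33.1) had a single-gene peak, including CENPA, the centromeric histone, at 6.0-fold, the anaphase-promoting subunit CDC23 at 5.84-fold, the kinesin KIF23 at 4.89-fold and the checkpoint protein BUB3 at 4.83-fold. ANAPC15 was not on that list. DNA replication gave 6 of 53 (11.3%), with TICRR at 5.38-fold, MCM10 at 4.72-fold, MCM3 at 4.68-fold and NASP. Cell-cycle kinases, cyclins and regulators gave 5 of 40 (12.5%): the pocket protein RBL2 at 6.10-fold, CCNB2 at 4.81-fold, E2F8, WEE1 at 4.09-fold and CDK1. The intervals of the last pair of lists, 4.27 to 23% and 4.19 to 26.8%, span the share over all genes.

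Of the 32 p53 targets of growth arrest and apoptosis, 8 had a single-gene peak (25%, 11.5 to 43.4), with a median fold of 5.17. CCNG1, a cyclin induced by p53, had 39 fragments at 9.07-fold, rank 18 of the group, with its summit at the start. SESN3, a sestrin that restrains mTORC1, had 18 fragments at 7.75-fold, 1051 bp inside the gene. TP53I3, a quinone oxidoreductase induced in p53-driven apoptosis, had 31 at 6.50-fold. CCNG2, RRM2B, TIGAR, PERP and PPM1D were the others, and the PERP peak lay at the far end of its gene. On the BCL2 family and apoptosome list the count was 2 of 25, AIFM1 and the caspase inhibitor XIAP at 5.19-fold.

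DNA repair by homologous recombination and the Fanconi pathway gave 6 of 36 (16.7%, 6.37 to 32.8), an interval that holds the share over all genes. FANCC had 6.61-fold, BARD1 6.06-fold, EXO1 5.70-fold and NBN 5.07-fold. Chromatin modifiers gave 15 of 78 (19.2%, 11.2 to 29.7), all at gene starts, where 95.3% of single-gene peaks with a known strand lay. The remodeller CHD1 had 6.94-fold, the demethylase KDM4A 6.74-fold, the deacetylase HDAC6 6.48-fold and the acetyltransferase KAT5 5.43-fold. Vesicle transport gave 6 of 49 (12.2%, 4.63 to 24.8), with COPZ1 at 6.93-fold, SEC23B at 6.87-fold, RAB1A at 5.66-fold and ARF4 at 5.00-fold. Cilia genes gave 3 of 24 (12.5%, 2.66 to 32.4), BBS9 at 6.54-fold, IFT27 at 6.51-fold and BBS7 at 4.92-fold. Mediator gave 1 of 30 (3.33%, 0.0844 to 17.2), MED11 at 4.97-fold. The intervals of vesicle transport, cilia and Mediator hold the share over all genes.

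HOX cofactors and homeobox genes outside the clusters gave 5 of 62 (8.06%, 2.67 to 17.8). Among them were the HOX partner PBX3 at 6.85-fold with the summit 1045 bp before its start, ADNP at 6.20-fold and IRX3 at 5.04-fold. TGIF1 was another, with its peak at the far end of the gene. Of 38 biliary and liver lineage genes only KRT8 had one (2.63%, 0.0666 to 13.8), at 4.24-fold and at the far end of the gene. Both intervals, and that of the driver genes below, hold the 7.87% of all genes. None of the 6 biliary markers, the 4 hepatocyte, 3 fibroblast or 3 immune markers had a single-gene peak, so the identity of the cells could not be checked from these peaks, which do not report expression. The 32 cholangiocarcinoma driver genes gave 2 (6.25%, 0.766 to 20.8), among them ELF3 at 4.69-fold, 964 bp past its far end.

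The AP-1 family gave 3 of 17, ATF2 at 5.37-fold, FOSL2 at 4.56-fold and JUN at 4.53-fold. Epithelial-mesenchymal genes gave 3 of 29 (10.3%, 2.19 to 27.4), TJP1, the repressor SNAI2 at 5.66-fold and VIM. Both intervals hold the 7.87% of all protein-coding genes. Large gene families differed from one another in this share. A single olfactory receptor of 392 (0.255%, 0.00646 to 1.41) had a peak, OR1D5 at 4.11-fold, at the far end. Keratins and keratin-associated proteins gave 3 of 149 (2.01%, 0.417 to 5.77), KRTAP4-9, KRTAP3-1 and KRT8. Solute carriers gave 16 of 386 (4.15%, 2.39 to 6.64), and SLC2A8 led them, followed by SLC25A44 at 6.43-fold, SLC60A2 at 5.33-fold and SLC9A8 at 5.31-fold. Zinc finger genes, which sit in clusters and share sequence, gave 48 of 509 (9.43%, 7.04 to 12.3), an interval that holds the 7.87%. They were led by ZNF146 at 8.26-fold, ZNF484 at 7.66-fold, ZNF92 at 6.49-fold and ZNF326 at 5.90-fold.

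**Figure D3:**
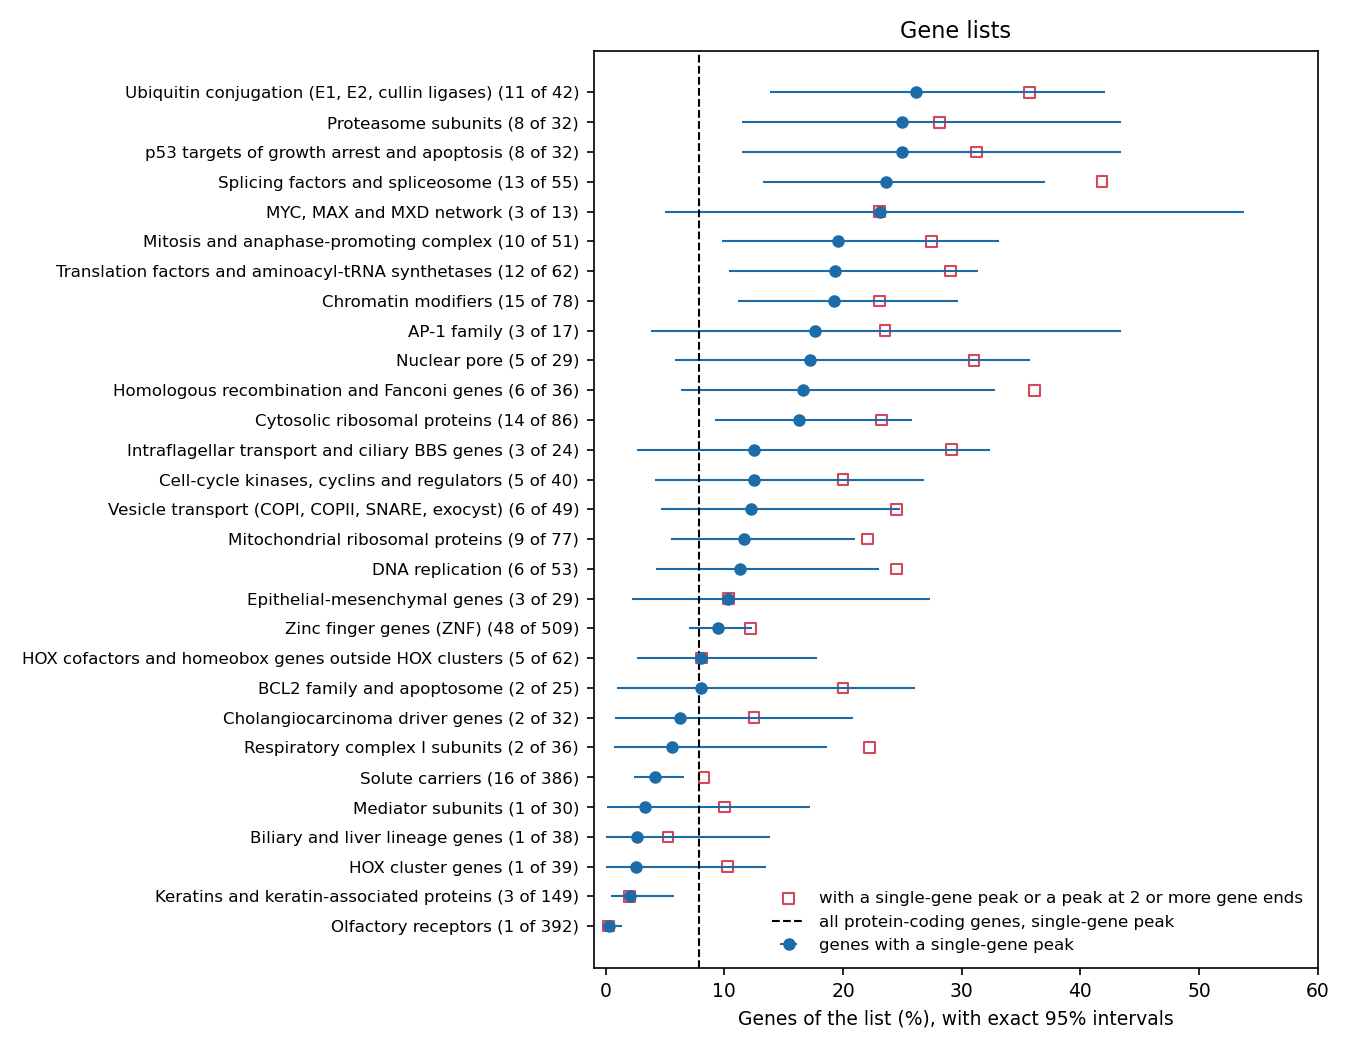
Filled circles give the percentage of each list's genes with a single-gene peak and their exact 95% intervals, open squares add genes at peaks with 2 or more gene ends, and the dashed line marks the 7.87% of all protein-coding genes. Ubiquitin, proteasome, splicing and p53 target lists are among those whose whole interval lies right of the line, and olfactory receptors, keratins and solute carriers lie left of it.

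Sequence was not used by the rule, and it was compared in 1105 promoter windows of 300 bases, 250 before and 50 after a listed start, that a single-gene peak overlapped in its own gene. The comparison set was 15842 windows, 1 for each protein-coding gene in the promoter table. Median GC content was 64.3% in the former and 62.7% in the latter, and the median number of CpG was 26 against 22. The lower quartile of CpG was 21 against 8, so windows poor in CpG were sparse among the single-gene peaks.

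The letters CCAAT, searched on both strands, were in 597 windows, 54.0% (51.0 to 57.0), against 36.4% of all windows. At least 2 matches were in 29.3% against 12.4%. Matches lay at a median of 100 bp before the start, against 93 bp over all windows, and 38.6% of them lay 50 to 110 bp upstream against 37.6%, so their position was alike while their number differed. The difference was also present within each of 4 GC groups, a split chosen after the data were seen. The lowest group is open-ended and is not matched for GC. The lower quartile of GC was 53% over windows of genes with no peak and 59% over single-gene windows. With cuts at the GC quartiles of the single-gene windows, CCAAT was in 61.0% of single-gene windows against 41.2% of windows of genes with no peak below 59% GC, in 59.6% against 35.6% from there to 64.3%, in 54.6% against 32.4% up to 69.3%, and in 42.1% against 24.3% above that.

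CCAAT also varied within the group. It was in 66.4% (60.5 to 72.0) of windows at or above the upper quartile of fold enrichment and in 46.6% (40.6 to 52.6) of those at or below the lower quartile. Median GC content was 63% and 65.3% there, and these windows were not matched for GC. Where the summit lay inside the window, the nearest CCAAT was at a median of 44 bp from it, and 53% of the 379 windows with a match had one within 50 bp. The nearest GC box was at 48 bp and the nearest TAAT at 57 bp. No expected distance was computed. CCAAT matches lay at a median of 100 bp before the start and summits at gene starts at 94 bp before it. Matches per window also differ between patterns, so these distances do not rank them.

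For homeodomain letters, the order depended on the windows they were compared with. The palindromic core TAATTA was in 23 of the 1105 windows, 2.08% (1.32 to 3.11), against 3.36% of all windows. The shorter TAAT was in 37.6% (34.8 to 40.6) against 42.3%, and TGATNNAT, the composite of HOX and PBX, in 3.71% (2.68 to 5.00) against 5.08%. TAAT matches include every TAATTA. Split by GC content as above, both cores were less frequent than in windows without a peak only in the group lowest in GC, which is not matched for GC. Below 59% GC, TAATTA was in 3.79% of single-gene windows (1.83 to 6.86) against 8.19%, and in the next 3 groups it was in 2.48% (1.00 to 5.05), 1.92% (0.627 to 4.43) and 0.334% (0.00847 to 1.85) against 1.70%, 0.641% and 0.179%. These rest on 10, 7, 5 and 1 windows with the letters. TAAT was in 63.6% (57.5 to 69.4) against 75.5% below 59% GC, then in 47.5% (41.6 to 53.5) against 38.0%, 29.2% (23.8 to 35.2) against 26.1% and 12.7% (9.15 to 17.0) against 10.4%. Within the group, TAAT was in 49.8% (43.8 to 55.9) of windows at or above the upper quartile of fold and 32.5% (27.0 to 38.3) of those at or below the lower one, and median GC content was 63% and 65.3% there.

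Several other promoter elements were more frequent at single-gene peaks than over all promoters. GGGCGG, the GC box, was in 76.0% of windows against 58.3%, TGACG, the short site of CREB, in 43.4% against 29.4%, and CCGGAA, an ETS site, in 32.9% against 22.7%. AAGATGGC, read by YY1, was in 7.51% against 3.86%, and GCGCATGC, read by NRF1, in 6.70% against 4.28%. TGACGTCA, the full CREB site, which holds TGACG, was in 4.52% (3.38 to 5.92) against 2.56%. The E-box CACGTG, the site of MYC and MXD1 with MAX, was in 10.2% (8.50 to 12.2) against 8.82%. The E2F sites TTTCGCGC and TTTGGCGC were in 1.27% (0.694 to 2.12) and 1.36% (0.762 to 2.23) against 0.808% and 0.884%. The intervals of the E-box and of both E2F sites hold the values of all promoters. In the same GC groups, from lowest to highest, GGGCGG was in 48.9%, 72.3%, 87.3% and 93.6% of single-gene windows against 20.1%, 56.4%, 75.4% and 93.9% of windows without a peak, so the difference was absent in the last group. CCGGAA was in 38.3%, 35.5%, 31.5% and 27.1% against 13%, 28.5%, 28.4% and 23.7%, and the intervals of the last pair of groups (25.9 to 37.6% and 22.1 to 32.5%) hold the values without a peak. For both patterns the widest gap was in the lowest group, which is not matched for GC. The other patterns of this paragraph were not compared at like GC content. The letters of CREB and NRF1 hold CpG, and windows poor in CpG were sparse among the single-gene peaks. TATAAA, over all GC contents, was in 5.07% against 9.75% and TGANTCA, the AP-1 site, in 3.53% against 5.70%. The ETS site ran counter to CCAAT within the group, at 28.5% (23.3 to 34.2) of windows at or above the upper quartile of fold and 37.5% (31.8 to 43.5) of those at or below the lower one. A match is a description of letters and not a binding site.

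Windows at the 507 peaks with 2 or more gene ends were close to these values. CCAAT was in 56.3% (52.5 to 60.0) of their 686 windows, GGGCGG in 76.5%, CCGGAA in 38.3% (34.7 to 42.1), TAAT in 40.2% and TAATTA in 1.31% (0.602 to 2.48). Each of these intervals overlaps that of the single-gene windows, which does not show the shares to be equal. The widest relative gaps included TTTCGCGC, in 2.48% (1.45 to 3.94) against 1.27%, and TGACGTCA, in 2.92% (1.79 to 4.47) against 4.52%. Differences between these groups were not tested, and 1 peak at 2 or more gene ends can bring in windows of neighbouring genes.

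**Figure D4:**
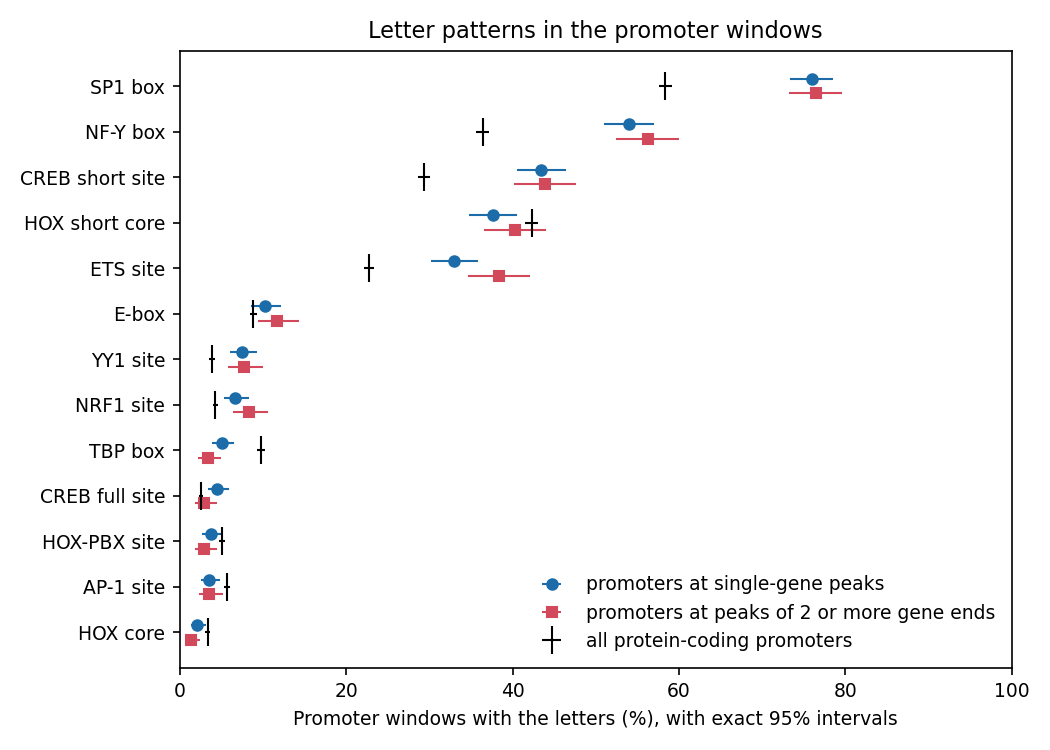
Points give the percentage of promoter windows that hold each letter pattern on either strand, with exact 95% intervals, for single-gene peaks (circles), peaks at 2 or more gene ends (squares) and all protein-coding promoters (ticks). The NF-Y box is CCAAT, the SP1 box GGGCGG and the TBP box TATAAA. Circles and squares lie to the right of the ticks for the NF-Y box, SP1 box, CREB short site and ETS site. For the TBP box and the HOX core they lie to the left. For the CREB full site the circle lies to the right and the square near the tick.

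The share of genes with a single-gene peak is given for the 23 chromosomes that held such a peak. It was highest on chromosome 14, at 70 of 605 genes (11.6%, 9.13 to 14.4), followed by chromosomes 10 (10.8%, 8.61 to 13.2), 8 (10.5%, 8.34 to 13) and 12 (10.4%, 8.64 to 12.5), which do not differ beyond their intervals. Among these 23 it was lowest on chromosome 22, at 17 of 451 (3.77%, 2.21 to 5.97), then 21 (4.60%), 6 (5.53%, 4.23 to 7.09) and 13 (5.62%). The local background under the peaks had a median of 3.86 fragments on chromosome 19 and 1.70 on chromosome 18. Across the 23 chromosomes, the share and the median background had a Pearson r of 0.41 and a Spearman rho of 0.45, given as a description since all points come from 1 library and share its depth. Copy number of the TFK-1 genome was not analysed here.

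**Figure D5:**
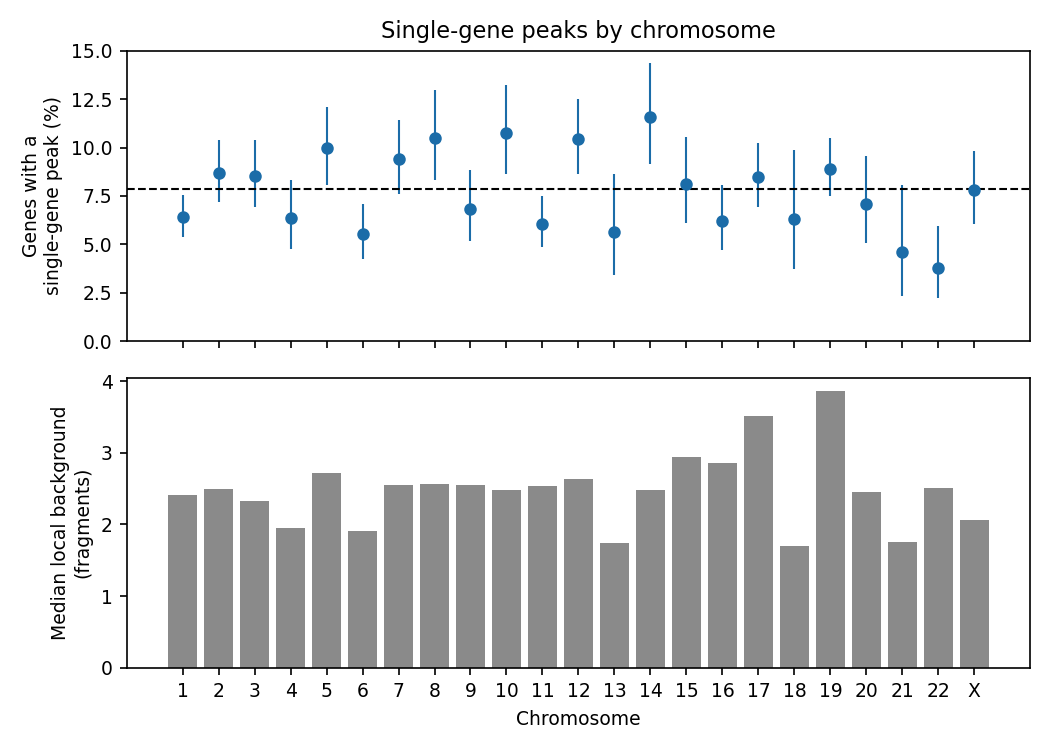
The upper panel gives the percentage of protein-coding genes with a single-gene peak on each of the 23 chromosomes that held one, with exact 95% intervals and the share of all genes dashed, and the lower panel the median local background of those peaks in fragments. Chromosome 14 is highest and 22 lowest in the upper panel, whereas 19 and 17 are highest in the lower.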

How the data were processed

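Anti-Flag CUT & Tag of TFK-1 cells gave 1 LV-HOXA5 and 1 LV-HOXA5-NC library. Per the labels, the submitters' processing notes name fastp, Bowtie2, deepTools, MACS2 and ChIPseeker and the build GRCh38, without versions. Per the file headers, the authors called peaks with MACS 2.2.7.1 on paired fragments after removal of duplicates, per library, at a q-value limit of 0.05, without a background library. For each peak the deposited tables hold its pileup (signal, in fragments), its fold enrichment over the local background (a ratio) and −log10 p- and q-values. Narrow-peak copies of these lists were not used.

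Peaks were joined by position to 20056 protein-coding genes of the RefSeq table (GRCh38.p14) with Python 3.11.15, pandas 2.3.3 and SciPy 1.17.1. Distance was measured from the peak edge, 0 where the peak covered the end. Strand came from the promoter table and was known for 15842 of the genes. Local background was computed as (pileup + 1) / fold − 1. Shares carry exact Clopper-Pearson 95% intervals, pileups exact Poisson intervals and medians intervals from binomial order statistics. Letters were searched on both strands. The scripts were tested on simulated peaks and sequences. Named genes were the 10 peaks of highest fold, genes with 3 or more peaks, the 4 of highest fold in each list, 10 genes of the study and those nearest the distance limit. Some genes that this rule selects are not reported here. The peaks and lists were chosen with earlier results of these data known. Alternatives covered the q-value, fold, length, distance, summit, chromosome and control-overlap choices.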

Additional observations from a re-analysis of the deposited data

How the results depend on the processing

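Of 52 recomputed values, 41 stayed within the 95% interval of the value given above (or, for the number of peaks, within 1.5 times it) and 11 did not, all 6 results and 12 settings counted. The 41 include values that had no room to move. Keeping only chromosomes 1 to 22, X and Y, or requiring no control peak within 1000 bp, left the same 1591 peaks and every value unchanged. TAATTA is its own reverse complement, so a search of the given strand only returned the same share. With fold enrichment at or above the LV-HOXA5 median, 819 peaks remained, 96.7% of them at a start, with a median fold of 5.60, a median summit at −112 bp and 4.08% of genes. A −log10 q of 3 or more gave a median fold of 5.03 and 6.77% of genes, and a length of at least that of the shortest control peak gave 4.92 and 6.87%; fewer peaks enter by construction. The share at a start was 97.1% within 500 bp and 93.4% within 2000 bp. The share of promoters with TAATTA ran from 1.95 to 2.45%, against 3.36% of all promoters at any GC content. It was 2.12% in windows between the GC quartiles of the group, a setting chosen after seeing the data, and in windows of like GC content without a peak the letters were not more frequent there than at the peaks. With 1 library per condition no replicate could be left out. The depth of the control library limits what the lack of a control peak shows.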

Other observations

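A protein-coding gene end is not always the only gene feature at a peak. Of the 1591 single-gene peaks, 503 (31.6%) also lay within 1000 bp of an end of a non-coding gene. Long non-coding RNA genes accounted for 433 of these. Among the 1579 genes reached, 28.7% (95% interval 26.5 to 31.0) had such a lncRNA end within 1000 bp of one of their own ends, against 17.0% of all protein-coding genes. Small RNA genes were rarer. A tRNA gene lay beside 24 peaks, and 15 of these peaks covered an end of it. Of the 62 protein-coding genes with a tRNA end within 1000 bp of an end, 20 had a single-gene peak, and of the 12 genes with a small nuclear RNA nearby, 6 did. Over all protein-coding genes the share with a single-gene peak was 7.87%. Among the 1579 genes, 1.27% (0.775 to 1.95) had a tRNA end nearby, against 0.309% of all protein-coding genes. For small nuclear RNA it was 0.380% (0.140 to 0.825) against 0.0598%. All 8 peaks near a small nuclear RNA gene covered one of its ends. They included RNU11 beside TAF12 at 8.70-fold, RNU12 beside POLDIP3 at 5.85-fold, RNU2-2 beside WDR74 at 5.43-fold, RN7SK beside GSTA4 at 4.96-fold, RNU4-2 and RNU4-1 beside SIRT4 at 4.44-fold and 3.11-fold, and RNU7-1 beside C12orf57 at 3.22-fold. These genes encode parts of the major, minor and histone-processing RNA machinery and the 7SK regulator of elongation. For such peaks the fragments cannot be assigned to the protein-coding gene rather than to its non-coding neighbour.

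The 12 genes with 2 single-gene peaks were singled out after their values were seen. They included AHR, BRD10, ELF3, GAGE2A, GPRC5A, POLR3E, PRDX1, SERTAD3, SIRT4, TAF11L10 and TRIM41. AHR, the ligand-activated xenobiotic receptor, had both near its start, at 4.23-fold and 4.45-fold. ELF3, an epithelial ETS factor, had one over its start with 19 fragments at 3.59-fold and a taller one past its far end with 42 fragments at 4.69-fold.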
